A study of Mus musculus with 20 samples.

Results

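The mouse genes Oas1a, Oas1b, Oas1c, Oas1g, Oas2, Oas3, Oasl1 and Oasl2 encode oligoadenylate synthetases and their close relatives. These 8 genes of the family were picked by gene name on an Agilent mouse array, and every probe that carries one of the names was kept. They hold 12 of the 39429 non-control probes of the array, which names 31093 genes. Of these 12 probes, 10 passed the filter on spots near background and 8 also varied enough between arrays to be tested. Oas1a has 2 tested probes, Oas1b, Oas1c, Oas2, Oas3, Oasl1 and Oasl2 have 1 each, and Oas1g has none.

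Blood RNA was measured in 4 groups of 5 male mice, aged 8 to 10 weeks, all littermates bred from heterozygous parents. The genotypes were C57BL/6 wild type (WT) and Il10-/-, from the strain B6.129P2-Il10tm1Cgn/J. The latter carries the germline allele Il10tm1Cgn and so lacks the anti-inflammatory cytokine interleukin-10 in every cell. Each genotype received 7 Gy of X-rays to the whole body or a sham exposure (0 Gy), and blood was taken by cardiac puncture 24 h later into a tube that fixes the RNA. Each mouse gave 1 array, and the 20 arrays lay on 5 slides that each held 1 array of every group.

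Oligoadenylate synthetases bind double-stranded RNA, a sign of viral infection or of misplaced cellular RNA, and join ATP into short chains of adenylate. These chains act as a messenger that leads to the decay of RNA and so halts translation in the cell. The genes belong to the classical interferon-stimulated genes, which the factor ISGF3 switches on through a promoter motif called the interferon-stimulated response element. The Oasl genes encode proteins of the same fold with a ubiquitin-like end.

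The promoters show which members hold letters of that element close to their start. RefSeq promoter windows in the build GRCm38.p6, from 250 bases before to 50 bases after the start of transcription, were on hand for 6 of the 8 genes (not Oas1b and Oas2). Both strands were searched for the core of the interferon-stimulated response element, spelled GAAA, any 2 bases and GAAA, and for the gamma-activated site, spelled TTCNNNGAA, where N is any base. The last 120 bases before the start are given 5′ to 3′ along the gene, with matches in capitals, for the genes whose transcripts carry the results below and for Oas1g, the near copy of Oas1a.
Oas1a, chr5:120907526-120907645, reverse strand: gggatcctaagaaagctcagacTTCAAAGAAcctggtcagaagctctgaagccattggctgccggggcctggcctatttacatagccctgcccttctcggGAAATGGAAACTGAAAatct
Oas1g, chr5:120887614-120887733, reverse strand: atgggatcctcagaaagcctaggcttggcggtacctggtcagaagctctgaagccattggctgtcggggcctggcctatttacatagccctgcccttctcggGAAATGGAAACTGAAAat
Oas3, chr5:120777660-120777779, reverse strand: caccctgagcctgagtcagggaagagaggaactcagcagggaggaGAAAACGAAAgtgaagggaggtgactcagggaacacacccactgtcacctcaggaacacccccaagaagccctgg
Oas1c, chr5:120812515-120812634, reverse strand: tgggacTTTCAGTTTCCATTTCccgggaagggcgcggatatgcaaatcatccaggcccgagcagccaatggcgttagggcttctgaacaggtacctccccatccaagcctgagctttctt
Oasl1, chr5:114923120-114923239, forward strand: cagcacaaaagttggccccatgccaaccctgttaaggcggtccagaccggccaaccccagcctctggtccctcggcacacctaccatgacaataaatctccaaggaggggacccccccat
Oasl2, chr5:114896814-114896933, forward strand: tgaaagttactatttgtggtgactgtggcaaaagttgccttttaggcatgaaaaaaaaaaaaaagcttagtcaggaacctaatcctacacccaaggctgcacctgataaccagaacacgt

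The core occurred in 4 of the 6 windows, compared with 3.44% of the 32851 promoters in the same table. Oas1a held 2 overlapping copies within the last 20 bases before its start, and Oas1g held the same pair within its last 18 bases. These windows of Oas1a and Oas1g share an unbroken run of 73 bases. Oas3 held 1 copy from base −75 to base −66, and Oas1c held an overlapping pair on the opposite strand between bases −114 and −99. The gamma-activated site occurred only in the Oas1a window, from base −98 to base −90, compared with 8.3% of all promoters. The windows of Oasl1 and Oasl2 hold neither spelling. A match is a run of letters and was not tested for binding.

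The probes are 60 bases long, and the array files place them in the older build mm9. All but 1 lie on chromosome 5. The Oas1 cluster, Oas2 and Oas3 lie together, from the Oas2 probe at chr5:121180343-121180402 and the Oas3 probe at chr5:121203598-121203657 to the second Oas1a probe at chr5:121348338-121348397. Oasl2, at chr5:115362168-115362227, and Oasl1, at chr5:115387861-115387920, lie apart from that cluster. The brighter Oas1a probe, at chr5:121326738-121326797, lists transcripts of both Oas1a and Oas1g and lies beside the Oas1g probes, so its signal cannot be assigned to either gene alone. The brighter Oas1g probe lists the same pair of genes. The dimmer Oas1a probe lists Oas1a alone. Of the Oas1b probes, the brightest is placed on chromosome 6 and shares a run of 42 bases with another Oas1b probe, and Oas1b itself is entered in RefSeq as a transcribed pseudogene. The dimmest of the 3, the tested one, lies in the cluster at chr5:121273890-121273949.

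Levels are given as log2 intensity of a probe minus the median of its array, so that a difference of 1 is 2-fold. A probe was called changed at p below 0.001 with a false discovery rate under 10% over all 18587 tested probes, in limma. On each array 29.9% to 57.8% of spots stood well above background, and the lowest share belongs to 1 unirradiated mouse labelled WT, replicate 5. In each group replicates 1 and 2 were the most alike pair: the log2 differences between them had a robust SD of 0.21 to 0.31, and other pairs of a group 0.35 to 1.25. The labels list them as separate replicates, taken here as different mice. With their mean counted as 1 array the member calls given below were 5 and 4, as without it. All 8 platelet genes of a marker list stood well above background on every array. The Il10 probe went against the genotype labels, at −2.64 to −1.06 in mice labelled WT (above background in 0 of 10) and at 1.94 to 3.29 in mice labelled Il10-/- (above background in 10 of 10). Its place relative to the altered stretch of the allele was not determined here, so it checks nothing, and the groups are called by their labels throughout.

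Irradiation was followed by higher levels of Oas1a, Oas2, Oasl1 and Oasl2 in the mice labelled WT. The rise was 13.6-fold and 11.1-fold at the Oas1a probes, 6.95-fold for Oasl1, 6.17-fold for Oas2 and 3.85-fold for Oasl2. These are 5 of the 8 tested probes, and 4.48% of all tested probes were called higher. Oas1b, Oas1c and Oas3 did not pass the test. The median log2 difference of the 8 probes was 2.29, and that of all tested probes was −0.02.

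In the mice labelled Il10-/-, Oas1a rose 7.20-fold and 6.71-fold at its probes, Oasl1 rose 7.04-fold and Oas2 rose 4.70-fold. These 4 of 8 probes compare with 3.29% of all tested probes called higher. Oasl2 was 2.58-fold higher and missed the call on its unadjusted p (limma, unadjusted p = 0.00207, adjusted p = 0.0177). The median log2 difference of the 8 probes was 1.80, and that of all tested probes was −0.10. No member probe was called lower in either genotype, where 2.32% (labelled WT) and 5.87% (labelled Il10-/-) of tested probes were.

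**Figure D1:**
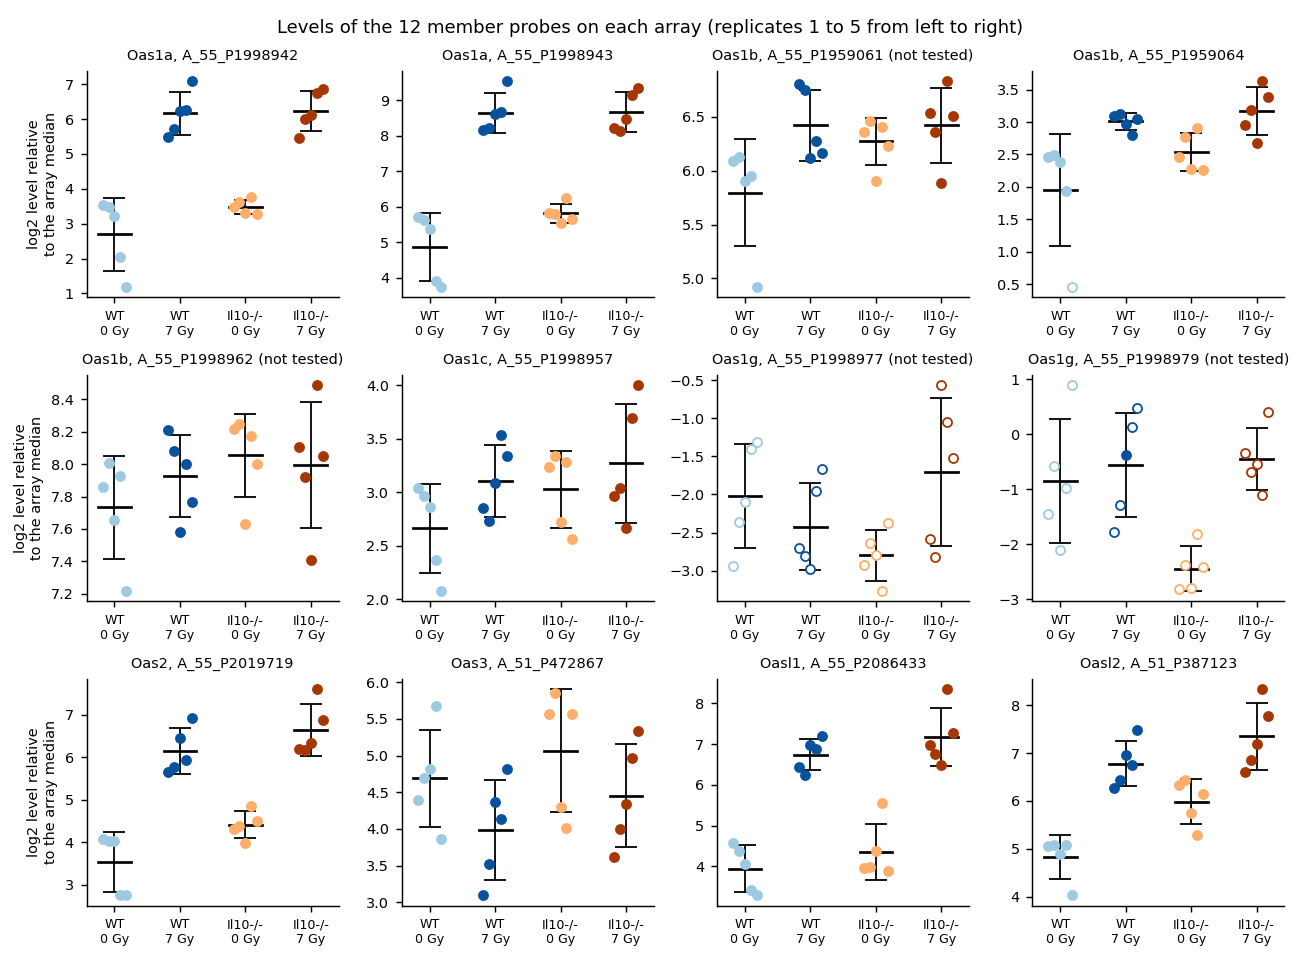
Log2 level (probe minus array median) of the 12 member probes on each of the 20 arrays, 1 panel per probe, with the 4 groups along the x axis. Filled points are well above background and open points are not, and bars give the mean ± SD of 5 arrays. Both Oas1a probes, Oas2, Oasl1 and Oasl2 separate the 7 Gy from the 0 Gy arrays in both genotypes, while both Oas1g probes stay near background.

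Oas1a encodes the best studied of the active mouse synthetases. At its brighter probe the unirradiated mice labelled WT had levels of 5.71, 5.63, 5.37, 3.92 and 3.75 (replicates 1 to 5), and the irradiated ones 8.17, 8.21, 8.60, 8.67 and 9.55. The lowest irradiated mouse lay well above the highest unirradiated one. The log2 difference was 3.76 ± 0.48 (SE, n = 5 and 5, adjusted p = 0.000262, limma). In the mice labelled Il10-/- the levels were 5.83, 5.79, 5.56, 6.26 and 5.67 without irradiation and 8.21, 8.14, 8.48, 9.16 and 9.36 after it, again without overlap. Here the log2 difference was 2.85 ± 0.29 (adjusted p = 6.12e-05). Within slides, where each pair shares a scan, the difference ran from 2.46 to 5.80 in mice labelled WT and from 2.35 to 3.69 in mice labelled Il10-/-. The probe that lists Oas1a alone gave 3.47 ± 0.50 (adjusted p = 0.000617) and 2.75 ± 0.28 (adjusted p = 7.29e-05), also without overlap.

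Oas1g encodes another active synthetase of the cluster, and neither of the probes named for it passed the background filter. The brighter of them also lists Oas1a transcripts, so its signal belongs to neither gene alone. The brighter one was well above background on 1 of 20 arrays, and the dimmer one on 0. At the brighter probe the irradiated mice labelled Il10-/- had levels of −0.33, −0.68, −0.55, −1.10 and 0.41, and the unirradiated ones −2.82, −2.38, −2.80, −1.81 and −2.42. These groups did not overlap (exact permutation test, 2-sided, p = 0.0079, the smallest that 5 arrays against 5 allow), but all 10 spots were not well above background, so no fold is given. Other probes without a spot well above background in these groups were nominally higher too, by 1.13 and 1.23 on the log2 scale for Oas1h, 1.13 for Ifna4 and 0.98 for Ifnb1. In mice labelled WT the same probe ran from −2.10 to 0.89 before and from −1.77 to 0.48 after irradiation (exact permutation p = 0.67), with full overlap.

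Oas2 carries a pair of synthetase units in 1 protein. Its levels in mice labelled WT were 4.08, 4.03, 4.02, 2.76 and 2.75 without irradiation and 5.65, 5.78, 6.46, 5.95 and 6.93 after it. The groups did not overlap, and the log2 difference was 2.63 ± 0.43 (adjusted p = 0.00123). In mice labelled Il10-/- the levels were 4.31, 4.38, 3.99, 4.86 and 4.51, and then 6.19, 6.18, 6.35, 7.60 and 6.89. These too were separate, with a log2 difference of 2.23 ± 0.31 (adjusted p = 0.000534). All slides gave a positive difference, from 1.57 to 4.19 and from 1.80 to 2.74.

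Oas3, the largest synthetase, was nominally lower after irradiation and did not pass the test. Its levels in mice labelled WT were 4.40, 4.69, 4.82, 5.67 and 3.86 at 0 Gy and 3.09, 3.53, 4.36, 4.14 and 4.82 at 7 Gy. The mice labelled Il10-/- had 5.57, 5.86, 4.30, 4.02 and 5.57, and then 3.62, 3.99, 4.35, 4.97 and 5.34. The groups overlapped in both genotypes, with log2 differences of −0.70 ± 0.44 (adjusted p = 0.323) and −0.61 ± 0.43 (adjusted p = 0.341). The slides did not all point one way: 1 of 5 was positive in mice labelled WT and 2 of 5 in mice labelled Il10-/-.

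Oas1b is known for resistance to flaviviruses, and most laboratory strains, C57BL/6 among them, carry a truncated form. Its tested probe had levels of 2.47, 2.50, 2.38, 1.94 and 0.46 in unirradiated and 3.10, 3.12, 2.98, 2.80 and 3.05 in irradiated mice labelled WT. These did not overlap, yet the log2 difference of 1.06 ± 0.43 did not pass (adjusted p = 0.108), and without replicate 5 of the unirradiated group it was 0.69. In mice labelled Il10-/- the levels of 2.26 to 2.91 and 2.68 to 3.63 overlapped, with a log2 difference of 0.63 ± 0.25 (adjusted p = 0.0877). The other Oas1b probes varied too little to be tested by limma. The probe placed on chromosome 6 differed by 0.20 and −0.06 in the 2 genotypes (exact permutation p = 0.33 and 0.79). The remaining probe differed by 0.62 and 0.15 (exact permutation p = 0.016 and 0.38), so the 3 probes did not give 1 sign in mice labelled Il10-/-.

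Oas1c, another gene of the cluster, did not pass the test. In mice labelled WT its levels spanned 2.08 to 3.04 before and 2.73 to 3.54 after irradiation, and with the Il10-/- label 2.56 to 3.35 and 2.67 to 4.00. All these ranges overlap. The log2 differences were 0.45 ± 0.37 (adjusted p = 0.463) and 0.24 ± 0.30 (adjusted p = 0.593).

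Oasl1 lacks synthetase activity and is known to restrain the translation of the interferon regulator Irf7. Its levels in mice labelled WT were 4.57, 4.39, 4.07, 3.41 and 3.29 at 0 Gy and 6.44, 6.25, 6.97, 6.87 and 7.20 at 7 Gy. The mice labelled Il10-/- had 3.97, 3.97, 4.37, 5.55 and 3.89, and then 6.98, 6.76, 6.49, 8.34 and 7.26. Neither pair of groups overlapped, although replicate 4 of the unirradiated mice labelled Il10-/- stood above its group. The log2 differences were 2.80 ± 0.39 (adjusted p = 0.000526) and 2.82 ± 0.40 (adjusted p = 0.00071).

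Oasl2 is a relative of Oasl1 that keeps synthetase activity. Its levels in mice labelled WT were 5.06, 5.08, 4.90, 5.08 and 4.03 without irradiation and 6.27, 6.43, 6.96, 6.75 and 7.48 after it. These were separate, with a log2 difference of 1.95 ± 0.39 (adjusted p = 0.00404). In mice labelled Il10-/- the levels were 6.32, 6.44, 5.74, 5.29 and 6.14, and then 6.61, 6.86, 7.20, 8.33 and 7.78. The lowest irradiated mouse lay just above the highest unirradiated one, and the slides gave 0.29, 0.42, 1.46, 3.04 and 1.64. The log2 difference was 1.37 ± 0.35, and the call was gained at a false discovery rate under 5% with no limit on p. That rule called 21.8% of all tested probes in this response, and the main rule 9.16%.

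Without overlap and higher at 7 Gy stood 6 of the 8 tested probes in mice labelled WT (11.8% of all tested probes) and 5 of 8 in mice labelled Il10-/- (6.13% of all tested probes). In the WT-labelled response the probe beyond the 5 called ones was that of Oas1b, and in the Il10-/--labelled response it was that of Oasl2.

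**Figure D2:**
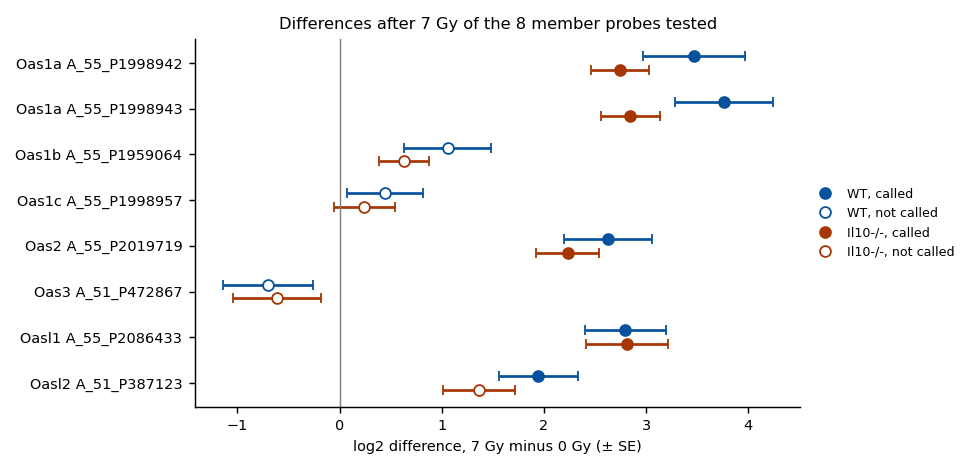
Log2 difference between 7 Gy and 0 Gy, with its SE, for the 8 tested member probes in mice labelled WT and Il10-/-, where filled points are called. The Oas1a, Oas2, Oasl1 and Oasl2 probes lie between 1.37 and 3.76, Oas1b and Oas1c between 0.24 and 1.06, and Oas3 below 0 in both genotypes.

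Each genotype lost its calls under 1 of the alternative treatments of the arrays. With the mean levels of liver and heart muscle genes as covariates, 0 of the 8 probes were called in mice labelled WT, with log2 differences of 1.00 to 2.13 at the 5 probes, and 28 of all tested probes were called in place of 1263. The liver levels of these groups do not overlap, so dose and covariate cannot be told apart there. With normexp background correction, 0 were called in mice labelled Il10-/-, with differences of 1.30 to 2.21 at the 4 probes, and 0 of all 11433 probes then tested.

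Markers of other tissues varied between arrays too. The mean log2 level of 11 genes made by liver, such as albumin, spanned 0.95 to 2.77 before and 3.71 to 11.5 after irradiation in mice labelled WT. With the Il10-/- label it spanned 3.08 to 9.74 before and 2.11 to 9.78 after. In mice labelled WT 7 of the 11 genes were called higher after irradiation, and none in mice labelled Il10-/-. The irradiated mice labelled WT had liver levels of 11.5, 11.5, 8.75, 3.71 and 6.12 (replicates 1 to 5). Their Oas1a levels were 8.17, 8.21, 8.60, 8.67 and 9.55. Replicates 1 and 2 also had the lowest Oas2, Oasl1 and Oasl2 levels of this group. The unirradiated mice labelled Il10-/- with the highest liver levels, 8.62 and 9.74, had the lowest and the highest Oas1a level of their group (5.56 and 6.26). They also had its highest Oasl1 levels (4.37 and 5.55, the others 3.89 to 3.97) and its lowest Oasl2 levels (5.74 and 5.29, the others 6.14 to 6.44). The irradiated mice labelled Il10-/- with the highest liver levels, 9.77 and 9.78 (replicates 1 and 2), had the lowest Oas1a levels of their group, 8.21 and 8.14. Their Oas2 and Oasl2 levels were also its lowest, but not their Oasl1 levels, 6.98 and 6.76. Replicate 4, with a liver level of 8.66, had the highest Oas2, Oasl1 and Oasl2 levels of this group. The mouse of this group with the lowest liver level, 2.11, had its lowest Oasl1 level, 6.49, and its middle Oas1a level, 8.48. Of 7 heart muscle genes 5 were called higher in irradiated mice labelled Il10-/-, with a mean level of 2.17 to 7.13 against 0.17 to 3.38.

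Blood cell markers moved as well. The mean level of 9 B cell genes was 4.77 to 6.14 without and 2.02 to 2.86 with irradiation in mice labelled WT, and 4.67 to 5.80 and 2.00 to 2.35 in mice labelled Il10-/-, with 8 of 9 genes called lower in each. Of 9 tested T cell genes 3 and 4 were called lower, and of 7 erythroid genes 4 and 5. Of 6 tested monocyte genes 1 was called higher in each genotype, and 1 and 3 were called lower. The mean level of 8 platelet genes was 7.21 to 8.89 before and 9.14 to 10.2 after irradiation in mice labelled WT, without overlap, and 7.77 to 10.4 and 10.3 to 11.1 in mice labelled Il10-/-, with 0 of 8 genes called in either. In whole blood, fewer cells of a type and less RNA per cell cannot be told apart, and the part of these shifts in the member levels was not tested.

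**Figure D3:**
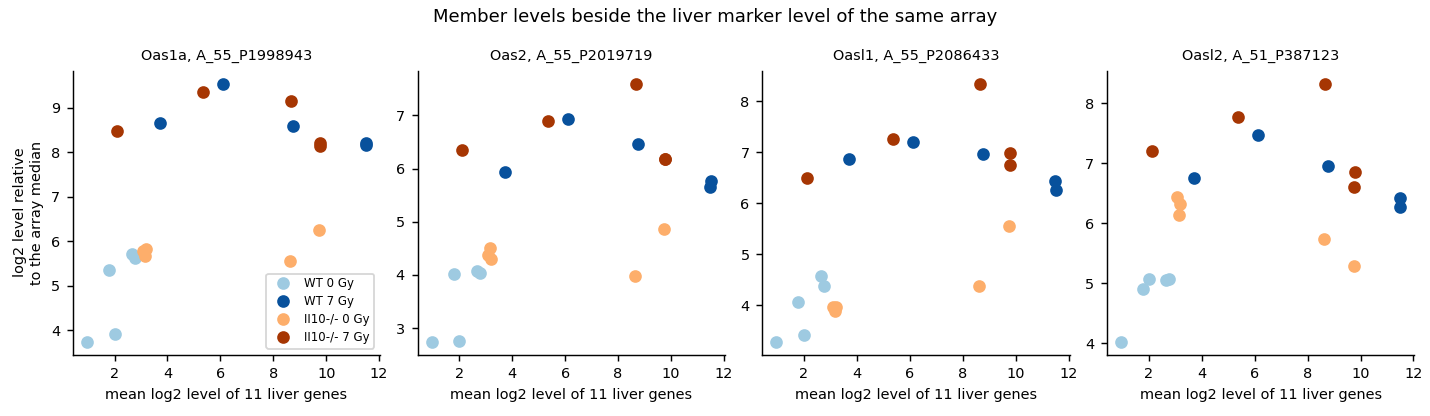
Log2 level of Oas1a, Oas2, Oasl1 and Oasl2 on each of the 20 arrays against the mean log2 level of 11 liver genes on the same array, coloured by group. Among unirradiated arrays labelled Il10-/-, those at liver levels of 8.62 and 9.74 have Oas1a levels of 5.56 and 6.26, Oasl1 levels of 4.37 and 5.55 and Oasl2 levels of 5.74 and 5.29.

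Before irradiation no member differed by the call between the genotypes, whereas 0.845% of tested probes were called higher in mice labelled Il10-/-. That share ran from 0 with normexp to 2.07% with the replicate block, and was 0.253% without replicate 4 of the mice labelled WT, with no member called in any of these. All 8 tested probes were nominally higher there, by 0.37 to 1.16 on the log2 scale, and 3 of 8 had an unadjusted p below 0.05, compared with 16.1% of all tested probes. Their median difference was 0.69, beside a median of 0.36 over all tested probes. The filter on variation was redone under the 75th percentile, the reference array and quantile normalization, and it left 6, 7 and 6 member probes. The medians of these were 0.49, 0.49 and 0.45, and those of all tested probes −0.07, −0.02 and 0.11. They cover fewer member probes than the median of 0.69 and cannot be set directly against it. Without replicate 5 of the mice labelled WT the median of the 8 probes was 0.33. Oasl2 had the largest difference, 1.16 ± 0.38 (adjusted p = 0.215, limma), with the levels of the groups given above not overlapping, as in 3.98% of all tested probes. It was positive on all 5 slides, from 0.21 to 2.11, and 0.96 without replicate 5 of the mice labelled WT. With quantile normalization it was 0.70. With the 75th percentile the groups overlapped, at 2.12 to 3.27 with the Il10-/- label and 1.80 to 2.41 with the WT label. On slide 4 the mouse labelled Il10-/- was then the lower one (2.12 and 2.41). For Oas1a the slides gave 0.12, 0.16, 0.19, 2.34 and 1.92, so the difference of 0.95 ± 0.44 (adjusted p = 0.306) rested on slides 4 and 5. At this baseline 4 of 7 mature neutrophil genes and 4 of 8 neutrophil precursor genes were called higher in mice labelled Il10-/-, and their part in these values was not tested.

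After irradiation no member probe was called between the genotypes, in a comparison that recovered 0 of 200 simulated log2 changes of 1. The 8 differences between mice labelled Il10-/- and WT ran from 0.03 for Oas1a to 0.58 for Oasl2, with 0 called (0.00538% of all tested probes were) and 0 with an unadjusted p below 0.05 (11.1% of all tested probes). The Oas1a difference was 0.03 ± 0.34 (adjusted p = 0.98) and that of Oasl2 0.58 ± 0.36 (adjusted p = 0.548). Oas2 and Oasl1 gave 0.49 ± 0.35 and 0.42 ± 0.35. The direction was not stable, since these 8 were all negative with normexp background correction. With liver and heart covariates all 8 were positive, with a median of 0.77 in place of 0.29 and none called.

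The responses themselves were compared as an interaction in limma. None of the 8 probes differed by the call, as none of all tested probes did, and 0 of 8 had an unadjusted p below 0.05 against 7% of all tested probes. The median interaction of the 8 probes was −0.41, and that of all tested probes was −0.20. For Oas1a, Il10-/- minus WT was −0.92 ± 0.57 on the log2 scale (adjusted p = 0.695), from −1.53 with normexp to −0.30 with the covariates. For Oasl2 it was −0.58 ± 0.50 (adjusted p = 0.779), and −0.38 without replicate 5 of the unirradiated mice labelled WT. For Oasl1 the difference was 0.02 ± 0.55 (adjusted p = 0.996).

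The neighbours of the members in the Oas1 cluster and genes of the wider pathway were taken from lists. Of 3 tested Oas1 genes outside the members 1 rose, Oas1f. Its levels were 4.46, 4.52, 4.35, 4.03 and 3.00 before and 6.86, 6.89, 7.31, 7.31 and 8.09 after irradiation in mice labelled WT. The mice labelled Il10-/- had 5.15, 5.28, 4.51, 5.18 and 4.52, and then 6.92, 6.98, 6.96, 7.82 and 7.79. The groups were separate, with rises of 9.32-fold (adjusted p = 0.000279) and 5.16-fold (adjusted p = 0.000198). Its probe shares no run longer than 14 bases with the brighter Oas1a probe. Oas1d, an ovarian form, was well above background on 0 of 10 irradiated and 4 of 10 unirradiated arrays and was not called. Oas1e gave log2 differences of −0.70 and −1.07 and was not called. Oas1h was not well above background on any array.

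Abce1, which recycles ribosomes, gave a log2 difference of −0.35 (adjusted p = 0.685, limma) in mice labelled WT. In mice labelled Il10-/- it was 2.01-fold lower, without overlap but not called (limma, unadjusted p = 0.00106, adjusted p = 0.0113). Pde12, which degrades the adenylate chains, gave 0.34 and −0.12, also not called.

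Among the 7 tested sensors of double-stranded RNA and other nucleic acids, 4 rose in mice labelled WT and 3 in mice labelled Il10-/-. Zbp1, a sensor of left-handed nucleic acid, rose by log2 differences of 2.75 and 2.29. Dhx58 and Ifih1, relatives of RIG-I, rose by 2.35 and 1.82 in mice labelled WT and by 1.42 and 1.39 in mice labelled Il10-/-. Eif2ak2, the kinase PKR that stops translation on double-stranded RNA, rose by 1.88 in mice labelled WT. Its 1.59 in mice labelled Il10-/- was not called (limma, unadjusted p = 0.00513, adjusted p = 0.0308). The median of the list was 1.82 and 1.39.

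Of 8 tested receptor and transducer genes, Usp18, which damps the interferon receptor, rose by 2.47 and 2.44. Irf7, a factor that drives interferon genes, rose by 1.56 in mice labelled Il10-/-. Its 1.88 in mice labelled WT was not called (limma, unadjusted p = 0.00278, adjusted p = 0.0271). Of 4 tested interferon ligands none was called, with a median log2 difference of −0.33 in mice labelled WT and −0.11 in mice labelled Il10-/-. No gene of any of these lists was called lower.

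**Figure D4:**
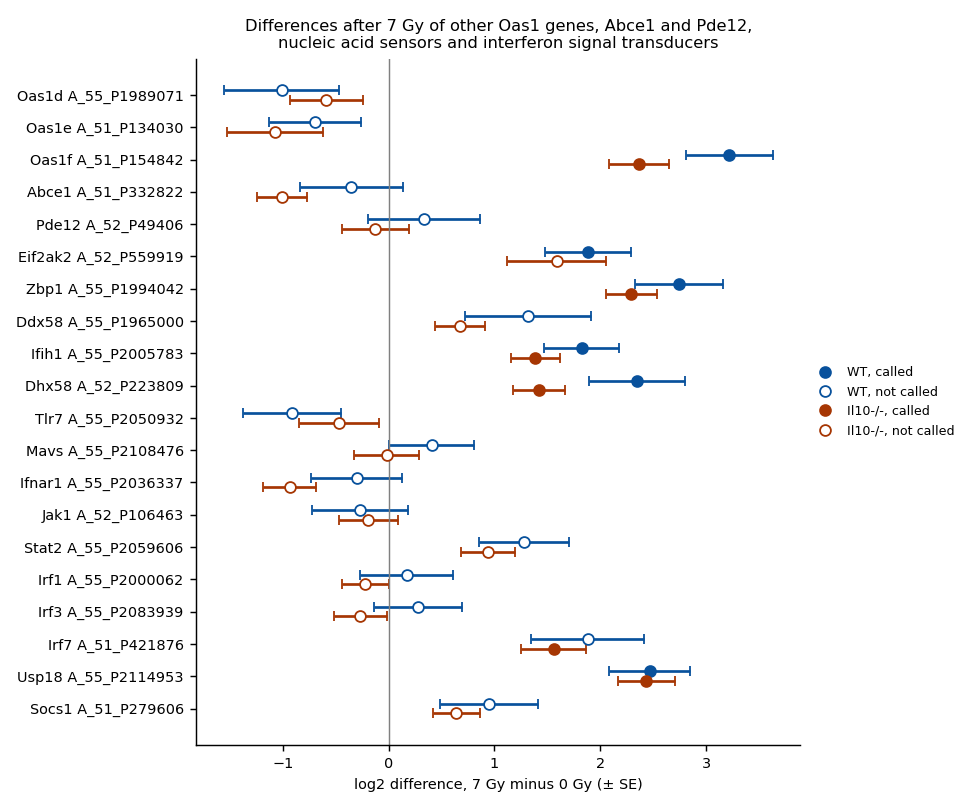
Log2 difference between 7 Gy and 0 Gy, with its SE, for the tested pathway genes beside the members, grouped by role, in mice labelled WT and Il10-/-, where filled points are called. Oas1f (3.22 and 2.37), Zbp1 (2.75 and 2.29) and Usp18 (2.47 and 2.44) lie far above 0 in both.

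How far the members vary together was described from the deviations of each array from its group mean, over 20 arrays that share slides and a scaling, with 1 probe per gene. Over the 28 pairs of members the median Pearson r was 0.35. Oas1a and Oas2 moved most alike (r = 0.92, Spearman rho 0.93), followed by Oas3 and Oasl2 (r = 0.87, rho 0.90) and by Oas2 and Oasl1 (r = 0.82, rho 0.79). Oas3 and Oasl1 showed no such likeness (r = −0.01). Without that weak array, replicate 5 at 0 Gy with the WT label, the median was 0.36, and the first 2 pairs had r = 0.91 and 0.85. The RNA editing gene Adar was the gene outside the members most like their mean profile (r = 0.93), followed by A630081J09Rik, Slfn10-ps, Daxx and Slc44a2 at 0.92 each, out of 18778 genes. Oas1f stood seventh, at 0.91. Without the weak array Adar stood at rank 3, Daxx at 2, Slc44a2 at 8, Slfn10-ps at 9 and A630081J09Rik at 11.

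**Figure D5:**
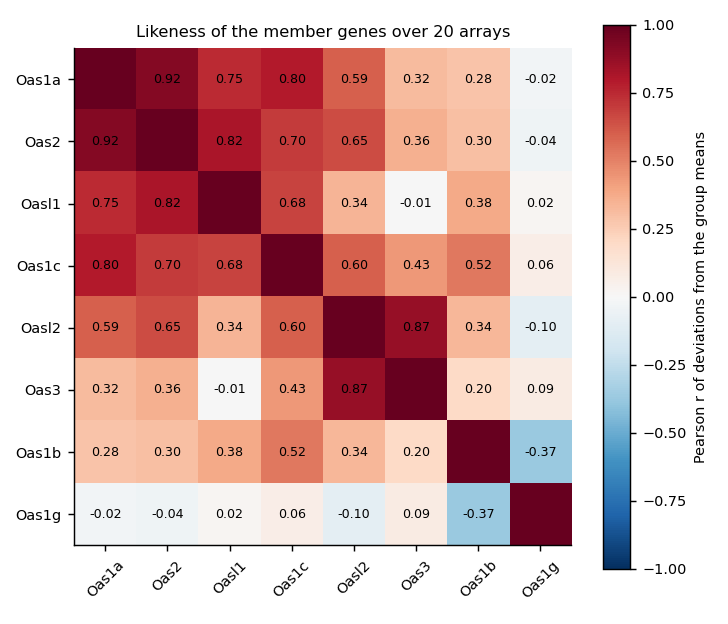
Pearson r between the 8 members, 1 probe per gene, over the deviations of 20 arrays from their group means, as an 8 by 8 matrix. Oas1a with Oas2 (0.92) and Oas3 with Oasl2 (0.87) have the highest values, and Oas1g, well above background on 1 array, runs from −0.37 to 0.09 with the others (−0.12 to 0.40 without the weak array).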

How the data were processed

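Whole-blood RNA from 20 mice was reduced in globin transcripts, labelled with Cy3 and hybridized to one-colour Agilent mouse arrays, 5 per group. The authors deposited, for each array, the spot intensity background-subtracted and detrended by Agilent Feature Extraction (10.7 per the labels and methods, 12.0.2.2 in the file headers), not normalized across arrays. A second deposited file holds log2 values of 16866 non-control probes, each array being the log2 intensity minus 1 constant, with 0 of 20 arrays off by more than 0.01. It served as an alternative only. All columns of per-sample values were mapped, with 0 left out.

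Repeated spots of 1 probe were averaged on the log2 scale after dropping spots the scanner software marked as uneven, and each array was centred on its median over the 39429 non-control probes. A first filter removed probes that were uneven or at background on at least 25% of arrays (22997 remained), and a second those that differed 1.5-fold or more from their median on fewer than 20% of the arrays, leaving 18587 probes of 15749 genes. Each response and each genotype comparison used its own 10 arrays in limma 3.58.1 (R 4.3.3, data.table package version 1.17.8), and the interaction used all 20. A probe was called at an unadjusted p below 0.001 and a Benjamini-Hochberg rate under 10% over all tested probes. Member probes removed by the filters were compared by exact permutation tests, 2-sided. Figures and sequence searches used Python 3.11.15 and matplotlib 3.10.9. Where a gene is given by 1 probe, it is the brightest that passed the background filter, or for Oas1g, where none passed, the brighter one.

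The members and lists were chosen with earlier results of these data known. Named are all member probes, Il10, the Oas1 genes outside the members, Abce1, Pde12, called genes of the other lists, and the 5 genes most like the mean member profile. The fits were tested on simulated data with 200 changed probes per comparison. A true log2 change of 1 was recovered in 3 at baseline and in 0 in every other comparison. A change of 2 was recovered in 144 and 145 in the responses, 154 at baseline, 140 after irradiation and 74 in the interaction. A missing call therefore does not exclude a 2-fold difference. One further gene of the pathway is not reported here. Precision is limited by the 5 arrays per group. The labels number separate replicates, taken here as separate mice, and p-values measure the spread between them. The alternatives were other scalings (75th percentile, reference array, quantile), normexp background correction, other filters, the deposited log2 values, a joint fit of all groups, the replicate number as a block, replicates 1 and 2 averaged, liver and heart covariates, a false discovery rate under 5% alone, and leaving out each array.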

Additional observations from a re-analysis of the deposited data

Results flagged for a closer look

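Of 48 probe and group combinations of the 12 member probes, 3 held an array far from the other 4, where chance gives about 1 in 20. All 3 were 1 mouse labelled WT, replicate 5 at 0 Gy, the array with the smallest share of spots well above background, 29.9%. Its Oasl2 level was 4.03, and the others had 4.90 to 5.08. For Oas1b it had 4.92 where the others had 5.91 to 6.12, and 0.46 at the tested probe where the others had 1.94 to 2.50. Centred on the 75th percentile of each array instead, it lay within the others for Oasl2 (2.12, others 1.80 to 2.41). The same held for the first of these Oas1b probes (3.02, others 2.80 to 3.28). At the tested Oas1b probe it stayed the lowest, at −1.45, with the others at −0.73 to −0.45. Without this array the WT-labelled response still held 5 called member probes, with log2 differences of 3.48 for Oas1a at its brighter probe, 2.63 for Oasl1, 2.43 for Oas2 and 1.75 for Oasl2.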

How the results depend on the processing

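Over the alternatives, 163 of 170 values of the response in mice labelled WT and 158 of 170 in mice labelled Il10-/- kept their direction and their side of the call. So did 167 of 170 baseline values, 149 of 170 irradiated differences and 217 of 242 interactions. The count of called member probes went from 5 to 0 in mice labelled WT with liver and heart covariates, and from 4 to 0 in mice labelled Il10-/- with normexp background correction. With 1 array left out it was 5 to 5 and 4 to 5. In mice labelled Il10-/- it was 5 with no filter, where the brighter Oas1g probe was added, and 6 with the deposited log2 values, where Oasl2 and that Oas1g probe were added. Oasl2 in mice labelled Il10-/- was called in 6 settings, at 1.52 (reference array), 1.45 (quantile), 1.51 (deposited log2 values), 1.37 (all groups fitted together, and the 5% rate alone) and 1.55 (without replicate 1 of the irradiated group). The cause was not tested.

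With the replicate number as a block, which is also the slide number, member calls were 5 and 4 in the responses and 0 in the other comparisons. Calls over all probes were then 1626 in place of 1263, 1290 in place of 1702, and 384 in place of 157 at baseline. Deviations of same-numbered arrays correlated from −0.66 to 0.68, with the highest mean, 0.41, between the irradiated groups. The numbers were not taken to pair the mice, and the main fits hold no term for the slide.

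No value that turned sign had been called. With normexp these were Oas3 in mice labelled WT (0.026), Oas1c in mice labelled Il10-/- (−0.094), the irradiated genotype differences of Oas1a (−0.87 and −0.71), Oas1b (−0.30), Oas1c (−0.29), Oas2 (−0.39), Oas3 (−0.25), Oasl1 (−0.42) and Oasl2 (−0.31), and the interactions of Oas3 (−0.83) and Oasl1 (−0.89). With covariates they were Oas1b in mice labelled WT (−0.23), Oas3 in mice labelled Il10-/- (0.019), Oasl1 at baseline (−0.31) and the interactions of Oas3 (−0.46), Oas1b (0.024), Oas1c (0.32) and Oas2 (0.11). With quantile normalization they were Oas3 (−0.091) and Oasl1 (−0.031) at baseline and the Oas2 interaction (0.00995). The irradiated difference of Oas1a was −0.066 and −0.020 at the 75th percentile, and at its brighter probe −0.020 with the reference array and −0.021 with the deposited log2 values. With replicates 1 and 2 averaged the Oasl1 interaction was −0.24. Leaving out 1 array gave ranges across 0 for the irradiated differences of Oas1a (−0.14 to 0.26 and −0.095 to 0.31) and Oas1c (−0.017 to 0.32) and for the interactions of Oas3 (−0.17 to 0.30) and Oasl1 (−0.28 to 0.32).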
